A study of Mus musculus with 59 samples.

Results

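Prefrontal cortex of male mice heterozygous for Ash1l (HT) was compared with that of wild-type males (WT), all of them given fluoxetine. The members were chosen by label: the 5 HT and 5 WT male fluoxetine libraries, 10 of the 59 libraries of the series. The mice were C57BL/6J, taken at postnatal day 25. Fluoxetine, a selective serotonin reuptake inhibitor, had reached the pups in the milk of the dam from postnatal day 3 to 24, so drug exposure, age and strain were common to both groups. The other 49 libraries were HT and WT females given fluoxetine, HT and WT mice of both sexes given lithium, and HT and WT mice of both sexes given vehicle. The labels name no litter, dam or cage, and dosing was by the dam, so p-values measure the spread between libraries. For limma that spread was pooled over all 59 libraries, unless the 10 alone are named. How the heterozygous allele was made, and how much protein was left, is not given in the sources used here.

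Ash1l encodes a histone methyltransferase of the Trithorax group that places methyl groups on lysine 36 of histone H3, a mark that counteracts Polycomb repression. Heterozygous loss-of-function variants of the human gene are a known cause of autism spectrum disorder with intellectual disability. Fluoxetine raises extracellular serotonin by blocking its transporter, and given early in life it meets a cortex that is still being wired. The comparison asks how the cortical transcriptome of HT males differed from that of WT males under this drug.

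Each value below is a normalised read count, that is, the reads of a gene in a library divided by the size factor of that library. The 10 libraries held 24.47 to 34.19 M reads in genes. All 10 carried Y-linked messages, with Ddx3y at 1007 to 1749 in HT libraries and 1113 to 1314 in WT libraries, while Xist did not pass 6.00. The cortical neuron markers Tbr1 and Slc17a7 were present in every library. HT replicates 2 and 4 stood apart: their scores on the first principal component were 41.5 and 45.9, against -27.4 to -2.70 in the other 8 libraries. The same pair had the highest summed olfactory bulb markers, as described further down. Outside the comparison, WT vehicle female replicate 3 had an Ash1l level of 3557, below every HT library used here, which touches the contrasts with the other groups.

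Ash1l itself was lower in every HT library. It had 3980, 4074, 3949, 4173 and 3964 normalised counts in HT libraries, against 5077, 5284, 5101, 5079 and 4928 in WT libraries. The groups did not overlap, and the highest HT library lay below the lowest WT library. The means were 4028 ± 94.6 in HT and 5094 ± 127 in WT libraries (SD, n = 5 each), so the level in HT males was 20.9% lower. The log2 fold change, the difference between the group means of log2(count + 1), was -0.34 ± 0.06 (SE, limma, adjusted p = 0.00224). An exact permutation test of the 5 against 5 libraries gave a two-sided p = 0.00794, the smallest that 252 arrangements allow. The gene lies on chromosome 3 from 88950622 to 89079375 of GRCm38, on the plus strand, and Dap3 overlaps it on the other strand. In the other groups the log2 fold change was -0.40 in vehicle males, -0.35 in fluoxetine females, -0.30 in lithium males, -0.38 in lithium females and -0.11 in vehicle females. The last of these did not pass the threshold and includes the low WT library named above. The genotype effect differed between fluoxetine and vehicle males by 0.06 ± 0.08, which did not pass (limma, adjusted p = 0.863).

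Beside Ash1l, Cnih1, Skida1, Prkar2b and 4 genes of cholesterol synthesis were lower in HT males, and Bmp1 and Lig1 were higher, each by less than 2-fold. Across all genes, 69 of 17875 differed between HT and WT males on fluoxetine, 0.386% of those tested (limma, Benjamini-Hochberg adjusted p under 0.05). Of these, 16 were higher in HT (0.0895%) and 53 were lower (0.297%). Their median absolute log2 fold change was 0.40, and 5 passed 2-fold. In 51 of the 69 the 5 HT and 5 WT libraries did not overlap, against 588 of all genes (3.29%). The 69 were chosen by p-values from these same libraries, so that share is not separate evidence. The count of 69 moved by over 1.5 times with each library removed in turn. With HT replicate 4 removed it was 1, with HT 5 15, with HT 3 24, with HT 2 233 and with HT 1 413. With WT replicate 1 removed it was 8, with WT 2 10, with WT 4 11, with WT 3 39 and with WT 5 113. edgeR's quasi-likelihood test on the recovered reads called 75 genes, 32 higher and 43 lower, and DESeq2 called 312. Fitted on the 10 libraries alone, limma called 0 genes (2491 at an unadjusted p under 0.05), and the adjusted p of Ash1l was 0.116. The log2 fold change went with GC content across 17864 genes (Spearman's rho 0.370, genes not being independent replicates), and with the trend in GC content and length removed 14 genes were called. In that fit, 11 of 33 called genes followed through the alternatives stayed past the threshold. Whether GC content was the cause for single genes was not tested. Across the 33 called genes followed through all alternatives, Ash1l was the only one that stayed past the threshold in the fit without HT 4. All 33 kept their direction under every alternative. They were chosen as called genes and the alternatives reuse the same libraries, so the kept direction is not separate evidence.

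**Figure D1:**
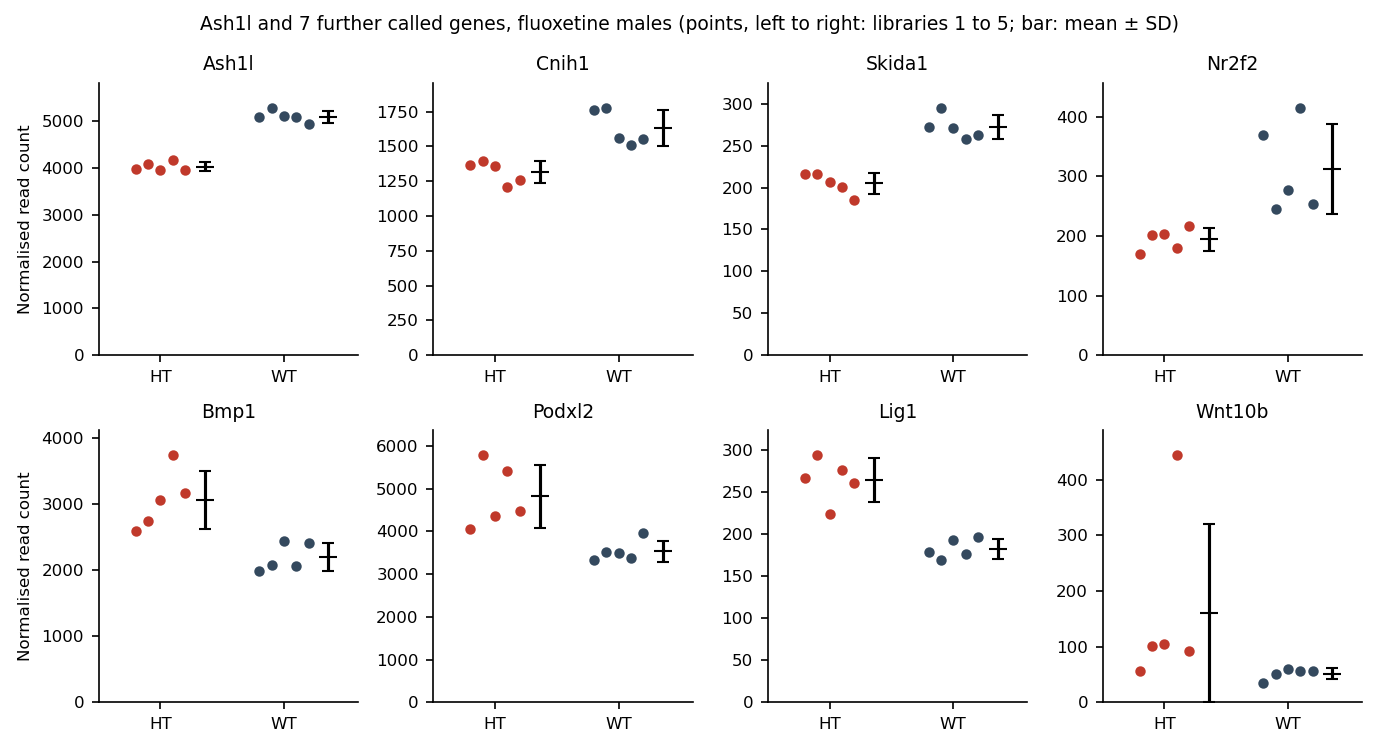
Normalised read counts of Ash1l and 7 further called genes in the 5 HT and 5 WT libraries from males given fluoxetine, one point per library in the order of replicates 1 to 5, with the mean and SD. Ash1l, Cnih1, Skida1 and Nr2f2 lie lower in HT and Bmp1, Podxl2, Lig1 and Wnt10b higher; HT replicate 4 holds the highest Bmp1 (3741) and Wnt10b (444) values.

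Among the genes lower in HT, those with the smallest p-values included Cnih1, Skida1, Prkar2b and the sterol genes Hmgcs1 and Sc5d. Cnih1 encodes a cargo receptor for export from the endoplasmic reticulum. It had 1364, 1397, 1356, 1208 and 1256 normalised counts in HT libraries, against 1759, 1777, 1559, 1513 and 1549 in WT libraries. The groups did not overlap. Its log2 fold change was -0.31 ± 0.06 (limma, adjusted p = 0.00501), and -0.28 without HT replicate 4, where the adjusted p was 0.0889.

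Skida1, which encodes a protein with a SKI/DACH domain, had 216, 216.1, 206.6, 200.4 and 185 normalised counts in HT libraries, against 272.3, 295.2, 271.1, 258 and 262.9 in WT libraries. Every HT library lay below every WT library. Its log2 fold change was -0.41 ± 0.08 (limma, adjusted p = 0.00671). Prkar2b encodes a regulatory subunit of protein kinase A. It had 2186, 1774, 1836, 1689 and 2020 normalised counts in HT libraries, against 2734, 2438, 2327, 2711 and 2487 in WT libraries. Again the groups were apart, at -0.42 ± 0.08 on the log2 scale (limma, adjusted p = 0.0107).

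Nr2f2, which encodes the orphan nuclear receptor COUP-TFII, differed more. It had 170, 201, 203, 179 and 217 normalised counts in HT libraries, against 370, 246, 278, 415 and 254 in WT libraries. No HT library reached a WT library, but WT replicates 1 and 4 lay well above the other WT libraries. The log2 fold change was -0.66 ± 0.14 (limma, adjusted p = 0.0233). WT replicates 1 and 4 also had the highest striatal marker sums of the 10 libraries (40900 and 47510). Whether striatal tissue bears on the Nr2f2 values was not tested. Nr2f2 stayed past the threshold with that level as a covariate. The level also differed between the groups (median 25080 in HT, 37270 in WT libraries), so this fit cannot separate it from genotype.

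The other genes named by smallest p-value in this direction were Mmgt1 (-0.36), Asph (-0.32), Tmem50b (-0.27), Tmeff1 (-0.35), Tmem33 (-0.38) and Nat8f3 (-0.96), each a log2 fold change past the threshold. Mmgt1 encodes a subunit of the membrane protein insertion complex of the endoplasmic reticulum, Asph an aspartyl hydroxylase of the same compartment, and Tmem33 and Tmem50b further membrane proteins. In all of them except Nat8f3 the groups did not overlap. Nat8f3 ranged over 23.3 to 69.2 normalised counts in HT libraries and 62.6 to 119 in WT libraries. It has close paralogs next to it, so reads may have been shared among them. Calnexin, the lectin chaperone of the endoplasmic reticulum encoded by Canx, was at 7486 to 8881 in HT libraries and 9504 to 9826 in WT libraries, a log2 fold change of -0.24 ± 0.06 (limma, adjusted p = 0.0353).

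Of the genes higher in HT, Bmp1 encodes the procollagen C-proteinase. It had 2595, 2748, 3055, 3741 and 3161 normalised counts in HT libraries, against 1987, 2078, 2438, 2062 and 2405 in WT libraries. The groups did not overlap, and its log2 fold change was 0.47 ± 0.09 (limma, adjusted p = 0.00446).

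Lig1, the replicative DNA ligase, had 266, 294, 224, 276 and 261 normalised counts in HT libraries, against 178, 169, 193, 176 and 197 in WT libraries. The groups were apart, with a log2 fold change of 0.53 ± 0.11 (limma, adjusted p = 0.0226). Podxl2, a sialomucin, was at 4051 to 5784 in HT libraries and 3325 to 3957 in WT libraries (0.44 on the log2 scale). Further higher genes were Pbx4 (0.50), Hhipl1 (0.47), Pabpn1 (0.35), Gas8 (0.31), Rccd1 (0.52), Thbs3 (0.45), Mcoln1 (0.20) and Cep164 (0.40), again as log2 fold changes. Gas8 and Cep164 are genes of cilia and centrioles, Pabpn1 encodes the nuclear poly(A)-binding protein, Thbs3 a thrombospondin and Mcoln1 a lysosomal cation channel.

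The largest fold changes among the named genes higher in HT rested on HT replicate 4. Wnt10b, a secreted Wnt ligand, had 57.0, 102, 106, 444 and 92.0 normalised counts in HT libraries, against 34.0, 51.5, 59.9, 56.3 and 56.2 in WT libraries. Its log2 fold change of 1.23 ± 0.31 (limma, adjusted p = 0.0491) was 0.77 without that library (adjusted p = 0.313). Tnnt2, which encodes a troponin T known mainly from heart, had 119, 137, 148, 390 and 151 normalised counts in HT libraries, against 75.1, 113, 112, 80.7 and 98.7 in WT libraries. It was at 0.84 ± 0.20 with all libraries (limma, adjusted p = 0.0421) and at 0.54 without HT replicate 4 (adjusted p = 0.284). In both genes replicate 4 lay far above the other 4 HT libraries, and for Wnt10b HT replicate 1 lay within the WT range. Without that library Skida1 was at -0.40, Prkar2b at -0.38, Nr2f2 at -0.63, Bmp1 at 0.40 and Lig1 at 0.51, none of them past the threshold (limma, adjusted p from 0.0889 for Skida1 and Bmp1 to 0.131 for Nr2f2).

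Several named genes overlap another annotated gene. Ash1l, Lig1, Asph, Nr2f2, Nat8f3, Rccd1, Thbs3 and Aldh1a1 share part of their span with a gene of the opposite strand that is also in the table, and Cep164, Pabpn1 and Gas8 with a gene of their own strand. Only the spans were compared, not the exons. No source used here gives the strand setting of the counting, and whether reads of a partner entered these values was not tested.

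Cholesterol synthesis was the one listed pathway with more than 1 called gene. In this pathway acetyl units are joined by Hmgcs1, then passed through isoprenoids (Idi1) and squalene to sterols that Msmo1, Sc5d and others finish. The transcription factor SREBP2 drives these genes when membrane sterol is low, and the brain makes its own cholesterol because lipoproteins do not cross from blood. Of the 4 called members, Hmgcs1 and Sc5d are shown here with the 250 bases before their RefSeq start (GRCm38.p6), read in the direction of the gene, because this is the stretch in which SREBP and its partner NF-Y are known to act. Capitals mark TCACNCCAC, a form of the sterol regulatory element, and CCAAT, the NF-Y box, on either strand.
Hmgcs1: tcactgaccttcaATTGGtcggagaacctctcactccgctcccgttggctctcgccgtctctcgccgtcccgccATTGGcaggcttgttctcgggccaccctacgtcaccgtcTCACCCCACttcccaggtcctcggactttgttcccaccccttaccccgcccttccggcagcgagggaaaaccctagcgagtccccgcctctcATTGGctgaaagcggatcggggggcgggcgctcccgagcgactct
Sc5d: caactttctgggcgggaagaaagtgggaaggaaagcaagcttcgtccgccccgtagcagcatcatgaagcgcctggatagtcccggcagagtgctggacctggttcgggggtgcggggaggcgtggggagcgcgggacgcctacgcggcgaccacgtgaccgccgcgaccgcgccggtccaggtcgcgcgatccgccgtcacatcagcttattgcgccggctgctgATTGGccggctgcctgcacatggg

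These windows lie at chr13:119690101-119690350 on the plus strand for Hmgcs1 and chr9:42264301-42264550 on the minus strand for Sc5d. The GENCODE vM21 starts of these genes lie further on, at 119690379 for Hmgcs1 and 42264256 for Sc5d. A stretch just after the RefSeq start matched an annotated transcript of the gene in 0 of 2 windows. Distances given here are to the RefSeq start. In the GENCODE vM21 annotation, exons of the gene reach the windows of the other 2, Idi1 and Msmo1, which are therefore not shown. Hmgcs1 held 1 match to TCACNCCAC, 137 to 129 bases before the start, and 3 to CCAAT. Sc5d held 1 match to CCAAT. Of all 32851 such windows, 33.8% held CCAAT and 1.05% held TCACNCCAC. The listed genes of this pathway had 26 such windows, of which 19 held CCAAT and 1 held TCACNCCAC. The motifs were picked with the called genes known, and a match is a description of the letters only.

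Hmgcs1 had 8564, 7807, 8088, 6414 and 7623 normalised counts in HT libraries, against 10470, 10280, 9877, 9365 and 10420 in WT libraries. The groups did not overlap, and HT replicate 4 was the lowest of the 10. The log2 fold change was -0.39 ± 0.07 (limma, adjusted p = 0.00446), and -0.33 without HT replicate 4 (adjusted p = 0.0889). Sc5d had 2282, 2169, 2095, 1725 and 1955 normalised counts in HT libraries, against 2652, 2625, 2468, 2538 and 2507 in WT libraries. Here too every HT library lay below every WT library, at -0.33 ± 0.06 (limma, adjusted p = 0.00671) and -0.27 without HT replicate 4 (adjusted p = 0.122).

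Idi1 had 1561, 1562, 1465, 945 and 1328 normalised counts in HT libraries, against 1885, 1747, 2010, 1847 and 1944 in WT libraries. Its log2 fold change was -0.48 ± 0.11 (limma, adjusted p = 0.0284), and -0.35 without HT replicate 4 (adjusted p = 0.222). Msmo1 had 1956, 1878, 1663, 1071 and 1582 normalised counts in HT libraries, against 2441, 2295, 2338, 2012 and 2059 in WT libraries. Its log2 fold change was -0.48 ± 0.11 (limma, adjusted p = 0.0304), and -0.33 without HT replicate 4 (adjusted p = 0.232). Neither gene overlapped between the groups, and in both HT replicate 4 was far below the other HT libraries.

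Of the 31 measured cholesterol and SREBP genes, 4 were lower in HT, where 0.297% of all genes were, 0 were higher, and 27 had a negative log2 fold change. The median was -0.21, against 0.004 over all genes tested. The groups did not overlap in 10 members, where 3.29% of all genes did not. Besides the 4 called these included Cyp51, Hsd17b7, Insig1, Scd1 and Stard4. Hsd17b7, a sterol ketoreductase, was nearest to the threshold of those that missed it (-0.35, limma, adjusted p = 0.0664). The list summed to 88930, 95350, 89570, 74200 and 97790 normalised counts in HT libraries, against 109300, 99800, 97220, 103900 and 107000 in WT libraries. HT replicate 5 lay just above WT replicate 3, so these sums overlapped. HT replicate 4 was the lowest of the 10 libraries in 23 of the 31 genes. Without it the median was -0.16, and 26 members still had a lower mean in HT. In vehicle males the median of the list was -0.004, and in fluoxetine females -0.02. In lithium males the 4 called members were also negative, at -0.19 (Hmgcs1), -0.12 (Sc5d), -0.23 (Idi1) and -0.19 (Msmo1). In lithium females they were positive, at 0.06, 0.11, 0.19 and 0.16 in the same order. None of these passed the threshold. Genotype by sex passed the threshold for 4 members, all lower (1.45% of all genes), and genotype by drug for 0 (0.00559% of all genes).

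**Figure D2:**
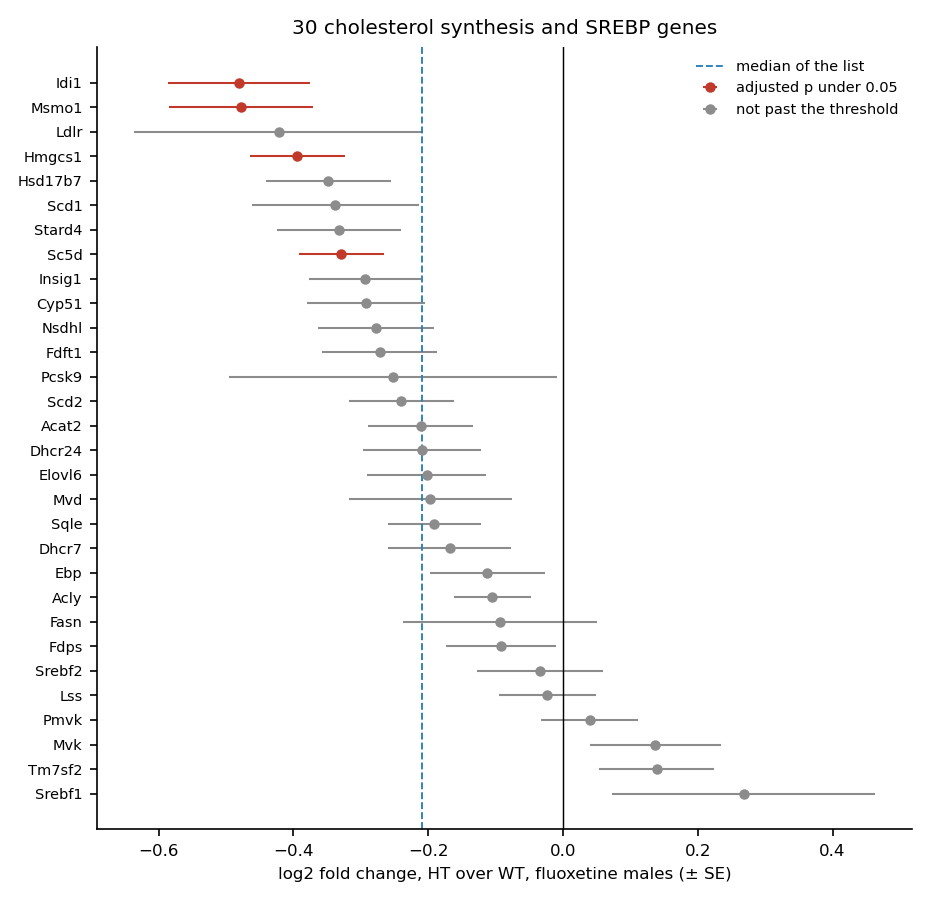
log2 fold change, HT over WT, with its SE for 30 of the 31 cholesterol synthesis and SREBP genes in males given fluoxetine. The 4 genes past the threshold are in red and lie left of 0, and the dashed line is the median of all 31 at -0.21.

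Among the chromatin genes on the lists, only Ash1l and Skida1 passed the threshold. Against 0.297% of all genes lower, 1 of 29 enzymes of H3K36 and KMT2 methylation was lower, Ash1l, and 0 were higher, with a median log2 fold change of 0.004. The closest of the others were Kmt2b at 0.27 (limma, adjusted p = 0.119) and Kmt2d at 0.27 (adjusted p = 0.177), both H3K4 methyltransferases, and Kdm2b at 0.17 (adjusted p = 0.175), a demethylase. Of 33 Polycomb genes, 1 was lower, Skida1, against the same 0.297%, with a median of 0.001. Pcgf2, a subunit of the repressive complex PRC1, was at 693 to 1054 in HT libraries and 531 to 789 in WT libraries (0.37, limma, adjusted p = 0.0874). The groups overlapped. Of 52 autism risk genes, Ash1l was the only one past the threshold, again against 0.297% lower among all genes, and the median was -0.001. Chd8, a chromatin remodeller on that list, was at 2940 to 3328 in HT libraries and 2567 to 2896 in WT libraries, without overlap but at an adjusted p of 0.177 (limma, 0.16).

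The GABA list held 1 gene called lower among 25 (0.297% of all genes), with a median log2 fold change of -0.15 and 18 negative members. Gabrg1 encodes the gamma1 subunit of the GABA-A receptor. It had 766, 834, 498, 618 and 544 normalised counts in HT libraries, against 1049, 870, 969, 953 and 914 in WT libraries. No HT library reached the WT range, with a log2 fold change of -0.57 ± 0.14 (limma, adjusted p = 0.0485). Of 18 serotonin signalling genes 0 passed (0.386% of all genes), with a median of -0.11. Htr1a, an inhibitory receptor of cortical pyramidal cells, was at 485 to 830 in HT libraries and 714 to 873 in WT libraries (-0.25, limma, adjusted p = 0.333). Of 17 ionotropic glutamate receptor genes 0 passed, with a median of -0.02.

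Single members passed in 3 other lists, all lower, where 0.297% of all genes were lower. Aldh1a1, a retinaldehyde dehydrogenase in the thyroid hormone list of 23 genes, had 1179, 1006, 1079, 549 and 949 normalised counts in HT libraries, against 1319, 1410, 1332, 1149 and 1326 in WT libraries. HT replicate 1 lay just above WT replicate 4, and the log2 fold change was -0.50 ± 0.12 (limma, adjusted p = 0.0452), or -0.31 without HT replicate 4 (adjusted p = 0.29). Stc1, the glycoprotein stanniocalcin in the IGF axis list of 19 genes, had 127, 109, 107, 55.4 and 92.0 normalised counts in HT libraries, against 121, 180, 194, 137 and 135 in WT libraries. Its groups overlapped through WT replicate 1 (-0.67 ± 0.17, limma, adjusted p = 0.0477). Canx, given above, was the 1 called gene of 27 in the unfolded protein response list, whose median was -0.04. In the same list HT replicate 4 summed to 56760 normalised counts, against 68830 to 73370 in the other 9 libraries.

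Other lists held 0 called genes, where 0.386% of all genes were called. Of all 17875 genes, 9119 had a positive log2 fold change. Of 79 cytosolic ribosomal protein genes 77 had a positive log2 fold change and 0 passed, with a median of 0.19. They summed to 251800, 276300, 260000, 305900 and 261400 normalised counts in HT libraries, against 242500, 235500, 229400, 242500 and 250400 in WT libraries. The sums did not overlap, though the lowest HT library lay close to the highest WT library. The median was 0.14 without HT replicate 4. In vehicle males the list median was 0.16, and in fluoxetine females it was -0.06, with 6 members positive and 73 negative. Many ribosomal protein genes have processed pseudogenes, so single members are uncertain. Of 31 interferon stimulated genes 27 were positive and 0 passed, with a median of 0.30. They summed to 10040 in HT replicate 4 and to 6461 to 7123 in the other HT libraries, against 6128 to 7071 in WT libraries. Without that library the median was 0.13.

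Immediate early genes, which report recent neuronal activity, showed 0 calls among 37 (0.386% of all genes) and a median of -0.08. Fos ranged over 286 to 752 normalised counts in HT libraries and 457 to 647 in WT libraries. Egr2 ranged over 73.3 to 206 in HT libraries and 117 to 170 in WT libraries. The HT libraries bracketed the WT libraries in both genes. Of 76 nuclear genes of oxidative phosphorylation 0 passed and the median was 0.05. Glucocorticoid responsive genes (27, median -0.03), circadian clock genes (21, -0.06) and cytosolic heat shock genes (20, -0.08) also had 0 calls.

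**Figure D3:**
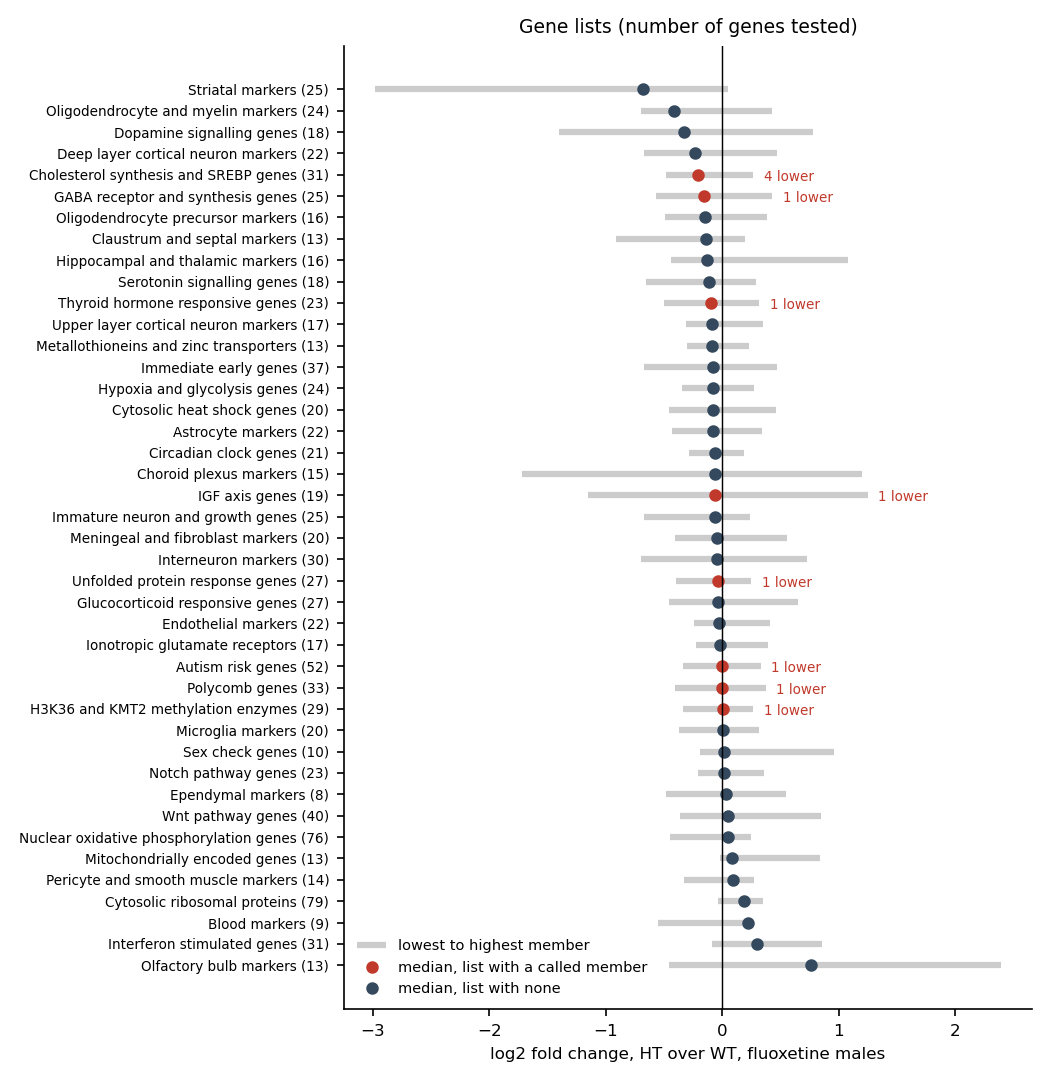
Median (point) and lowest to highest member (bar) of the log2 fold change, HT over WT, in males given fluoxetine, for 42 gene lists with the number of genes tested in brackets. The cholesterol list holds 4 called genes, 7 lists hold 1 each (Ash1l stands in 2 of them), and every called member is lower in HT.

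Markers of neighbouring regions and of glia varied between libraries of the same group. Over all genes, 0.386% were called. Striatal markers (25 genes such as Drd1, Drd2 and Adora2a, of the medium spiny neurons below the cortex) had 0 calls, 24 negative members and a median log2 fold change of -0.68. They summed to 23870, 28180, 24140, 25080 and 30080 normalised counts in HT libraries, against 40900, 24720, 25830, 47510 and 37270 in WT libraries. WT replicates 1, 4 and 5 were high, and WT 2 and 3 lay among the HT libraries. Drd2 followed the same pattern, with 23.0 to 95.2 in HT libraries and 20.7 to 252 in WT libraries. Adding the striatal marker level of each library to the fit raised the count of called genes to 754, among them all 69.

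Myelin and oligodendrocyte markers behaved alike, with 0 of 24 called (0.386% of all genes), 23 negative and a median of -0.41. They summed to 123000, 166800, 99250, 107100 and 183400 in HT libraries, against 235300, 134000, 115200, 194100 and 238600 in WT libraries. WT replicates 1, 4 and 5 were again the highest, and with the striatal level in the fit the median was -0.03. In bulk tissue, fewer cells of a type and less RNA per cell cannot be told apart. With that covariate all 33 followed genes stayed past the threshold. These were chosen as called genes and the covariate raised the count to 754, so this cannot tell tissue composition from genotype.

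Olfactory bulb markers separated 2 HT libraries from the other 8 of the comparison. They summed to 5575, 29100, 4331, 12670 and 3901 in HT libraries, against 6067, 4686, 5952, 6677 and 5987 in WT libraries. Eomes and Tbx21, transcription factors of mitral and tufted cells, showed this most clearly. Eomes was at 1152 and 367 in HT replicates 2 and 4 and at or below 22.1 in the other 8 libraries. Tbx21 was at 350 and 218 in that pair and at or below 13.6 elsewhere. With both libraries left out, 4 genes were called in place of 69, and 2 of the 33 followed genes were past the threshold, among them Ash1l (-0.36). The median of the cholesterol list was then -0.16. These region markers also differed by genotype in the groups used for the contrasts below. The olfactory bulb median was -0.404 in vehicle males (0 of 13 positive) and 1.025 in fluoxetine females (13 positive). Striatal medians there were 0.144 and -0.180. Whether this bears on those contrasts was not tested.

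Among cortical cell types, 0 markers were called, where 0.386% of all genes were. Astrocyte markers summed to 204300 to 244400 in HT libraries and 253500 to 263400 in WT libraries, with HT replicate 4 lowest. These sums did not overlap although the median over 22 genes was only -0.08. Deep layer neuron markers (22 genes) had a median of -0.23 and upper layer markers (17 genes) -0.09. With the striatal marker level in the fit, these medians were -0.094 and -0.096. Met, a receptor tyrosine kinase of projection neurons, was at 276 to 364 in HT libraries and 339 to 626 in WT libraries (-0.53, limma, adjusted p = 0.065). Interneuron markers (30 genes, -0.04), microglia (20 genes, 0.01) and endothelium (22 genes, -0.03) lay near 0 in the median. Oligodendrocyte precursors (16 genes) were at -0.15, and at 0.01 with the striatal level in the fit.

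**Figure D4:**
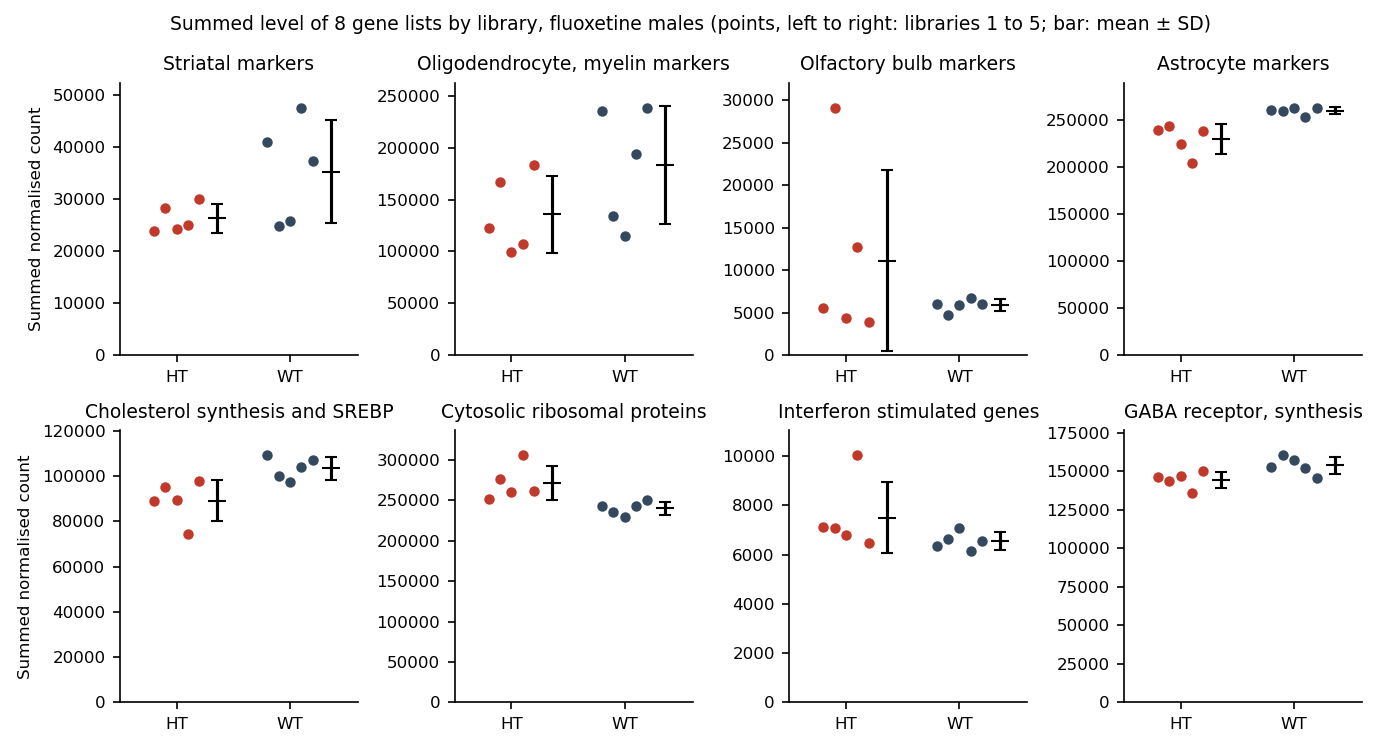
Summed normalised counts of 8 gene lists in each HT and WT library of males given fluoxetine, points in the order of replicates 1 to 5, with mean and SD. Striatal sums are high in 3 WT libraries (37270 to 47510), olfactory bulb sums in HT replicates 2 and 4 (29100 and 12670), and HT replicate 4 is lowest for cholesterol (74200) and highest for ribosomal (305900) and interferon (10040) genes.

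Whether these differences depended on the drug was tested against vehicle males, a contrast that shares the 10 libraries with the one above. Of 17875 genes 1 passed (0.00559%), Cnih1. Its level was 1316 ± 80.3 in HT and 1631 ± 126 in WT males on fluoxetine, and 1599 ± 102 in HT and 1476 ± 113 in WT males on vehicle (SD, n = 5 each). On fluoxetine the groups were apart, and on vehicle they overlapped, at 1474 to 1704 in HT libraries and 1345 to 1593 in WT libraries. The genotype effect differed by -0.43 ± 0.08 on the log2 scale (limma, adjusted p = 0.0402). That single call was lost without any of HT fluoxetine replicates 3, 4 and 5, WT fluoxetine replicates 1 and 2, HT vehicle replicates 2, 3 and 4 or WT vehicle replicates 1, 3 and 4. Among genes that the naming rule allows, the next were Cep164 (0.64, adjusted p = 0.115), Gas8 (0.46, adjusted p = 0.141), Tmem9b (-0.37) and Coro6 (0.63), none past the threshold. BC031181, which that rule leaves out, was at -0.41 (adjusted p = 0.115). By genotype alone, 1 gene passed in vehicle males (0.00559%), Ash1l. Of the 69 genes called on fluoxetine, 39 had the same sign in vehicle males and 29 in fluoxetine females, groups that share no library with the 10.

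Against females on fluoxetine, the genotype effect differed for 354 genes (1.98%), 94 higher (0.526%) and 260 lower (1.45%) in males. By genotype alone, 348 genes passed in fluoxetine females (1.95%), 244 higher in HT (1.37%) and 104 lower (0.582%). The contrast shares the 10 libraries with the main comparison, so it is not separate evidence. The count ranged between 78 and 770 when 1 library was left out. The 6 genes with the smallest p-values were Spty2d1, Sike1, Kctd7, Slc5a3, Egr2 and Fos, all lower. Spty2d1, a histone chaperone gene, was at 463.6 ± 37.58 in HT and 531.7 ± 10.02 in WT males, and at 570.6 ± 46.84 in HT and 399.2 ± 17.01 in WT females (SD, n = 5 each). The groups were apart in both sexes, in opposite directions, and the effects differed by -0.71 ± 0.11 (limma, adjusted p = 0.000399). Kctd7, a potassium channel tetramerisation domain gene, was at 340 ± 41.2 in HT and 432 ± 21.8 in WT males and past the threshold there (-0.35, limma, adjusted p = 0.0485). In females it was at 432 ± 52.2 in HT and 338 ± 25.2 in WT libraries, which overlapped.

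For Fos, Egr2, Sike1 and Slc5a3 the genotypes overlapped in males and not in females. Fos was at 887 to 1860 in HT females and 197 to 565 in WT females, a log2 fold change of 2.02 there and -0.39 in males. Egr2 was at 172 to 675 in HT females and 47.4 to 107 in WT females. Of 37 immediate early genes, 8 passed the genotype by sex contrast in the lower direction, where the share over all genes was 1.45%. All 37 had a positive fold change in females, with a median of 0.80.

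Against the mean of the other 5 drug and sex groups, the genotype effect in fluoxetine males differed for 127 genes (0.71%), 37 higher (0.207%) and 90 lower (0.503%). This count moved between 1 and 509 when 1 library was left out, by over 1.5 times for each of the 10 compared libraries. The genes with the smallest p-values were Cnih1 (-0.38 ± 0.06, limma, adjusted p = 0.00257), Sc5d (-0.35), Mmgt1 (-0.43), Ypel5 (-0.43), Fundc1 (-0.50) and Ptp4a1 (-0.42). Ptp4a1 is listed under a pair of overlapping identifiers, of which this is the more abundant. Fundc1 encodes a mitophagy receptor of the outer mitochondrial membrane. It was at 488 to 772 in HT libraries and 776 to 893 in WT libraries, without overlap.

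**Figure D5:**
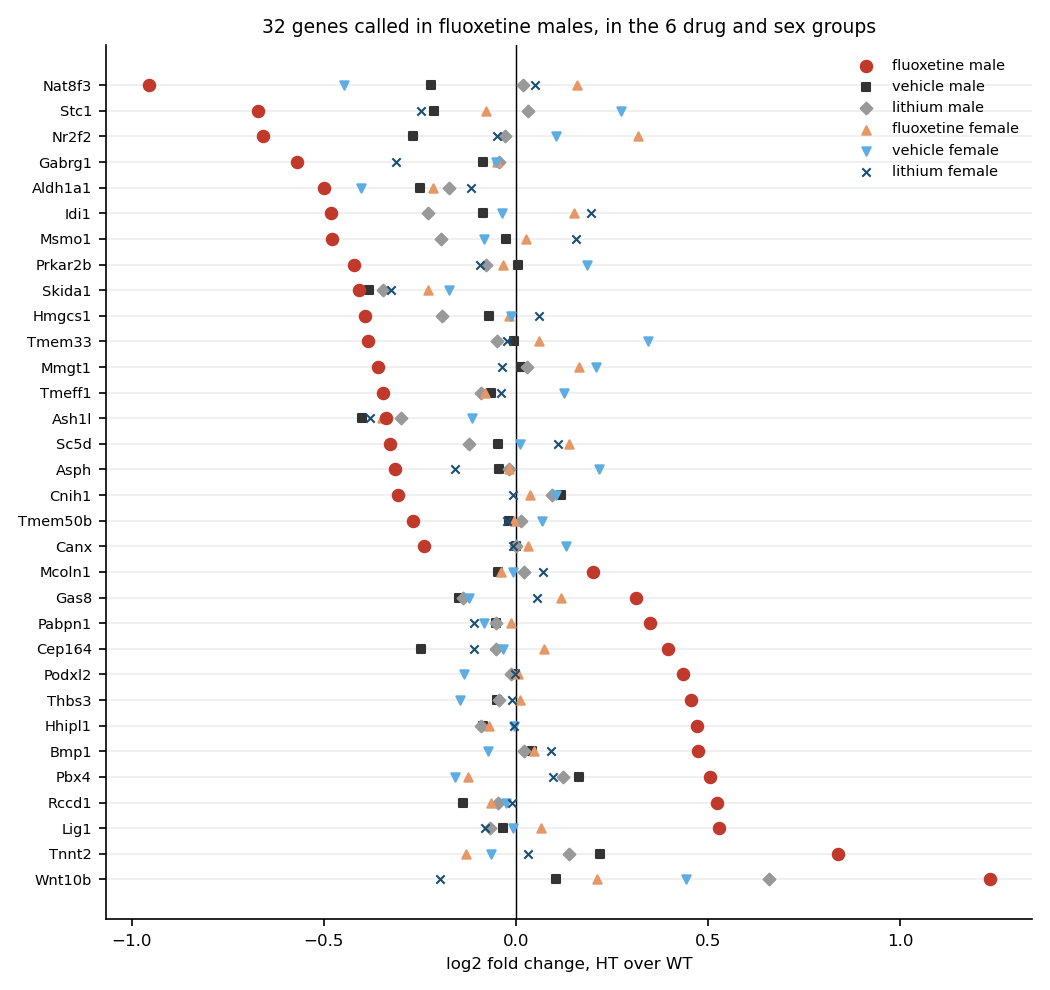
log2 fold change, HT over WT, of 32 genes called in males given fluoxetine, in each of the 6 drug and sex groups. The fluoxetine male values (large red points) were used to choose the genes. Those negative in all 6 groups include Ash1l, Skida1, Aldh1a1 and Gabrg1, while for Cnih1 the vehicle male value is 0.12.

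Genes that carried a genotype effect elsewhere were then looked up in fluoxetine males. Averaged over the other 5 groups, which hold none of the 10 libraries, 41 genes passed (0.229%), 18 higher (0.101%) and 23 lower (0.129%). In fluoxetine males 30 of the 41 had the same sign (73.2%), against 45.9% of all genes. The agreement was uneven, with 20 of 23 lower genes negative and 10 of 18 higher genes positive. Both lists held Ash1l, Skida1 and Aldh1a1, which are 7.32% of the 41 and 4.35% of the 69. The average over the other groups was -0.31 for Ash1l, -0.29 for Skida1 and -0.23 for Aldh1a1. Without WT vehicle female replicate 3, 49 genes passed there. That count was 23 to 27 without HT vehicle female 2, HT fluoxetine female 4, WT vehicle male 4, HT lithium male 2, HT vehicle male 5 or WT fluoxetine female 5.

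Tbx1, a T-box transcription factor gene, had the largest fold change of those named in the other groups (-1.89, limma, adjusted p = 0.00315). In fluoxetine males it had 21.0, 0, 10.92, 13.29 and 1.095 normalised counts in HT libraries, against 34.04, 26.94, 32.67, 33.97 and 27.22 in WT libraries. There was no overlap, but at these low counts the adjusted p was 0.103. In vehicle males Tbx1 was at 1.09 to 21.3 in HT libraries and 35.3 to 44.1 in WT libraries. In fluoxetine females it was at 0 to 20.1 in HT libraries and 22.7 to 50.3 in WT libraries. Trp53i11 was at 2089 to 2779 in HT males on fluoxetine and 1688 to 1997 in WT males, without overlap (0.33, adjusted p = 0.0641). Met, given above, averaged -0.40 in the other groups. The metallothionein genes Mt1 and Mt2, at -0.25 and -0.31 elsewhere, were at -0.10 and -0.30 in fluoxetine males, with overlapping groups and without passing the threshold. Rybp (0.18 elsewhere), a PRC1 subunit gene, was at -0.10, and Kirrel2 (-0.42 elsewhere) at -0.05.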

How the data were processed

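RNA-seq of mouse prefrontal cortex was deposited as 1 table of 18088 genes in 59 libraries (29 HT, 30 WT), prepared with a stranded mRNA kit per the labels' protocols. The submitters' processing notes name Salmon 0.11.2, R 3.6.0, DESeq2 1.19.11 and GRCm38, without roles. Which annotation, strand setting and gene selection they used is not given in the sources used here. The deposited values are a normalised signal made by the authors: read counts divided by a size factor per library. Every value was a whole number of reads (within 0.01) once multiplied back, so read counts were recovered from the deposited values for the count tests. Library depth was 24.47 to 36.32 M reads.

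Because the values are normalised, limma 3.58.1 (R 4.3.3, trend and robust) was fitted to log2(value + 1) over all 59 libraries, with 1 mean for each of 12 groups. The 17875 genes with at least 10 in at least 5 libraries were tested and 213 were left out. A gene was called at a Benjamini-Hochberg adjusted p under 0.05 over all genes. The script was tested on simulated data. Alternatives were edgeR 4.0.16, DESeq2 1.42.0, other scaling, pseudocount, filters, weights, covariates and left-out libraries. Positions come from GENCODE vM21, matched for 18077 genes.

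Named genes were Ash1l, up to 15 called genes per direction with the smallest p-values (predicted genes left out), called list members, up to 4 members of a described list, up to 6 genes per interaction and up to 10 genes called in the other 5 groups. The compared libraries and the 42 gene lists were chosen with earlier results of these data known. Some genes that this rule selects are not reported here.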

Additional observations from a re-analysis of the deposited data

Results flagged for a closer look

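Among 92 groups of 5 libraries checked, over 33 genes and 13 lists, 4 held a library far from the other 4, and in all 4 it was HT replicate 4. Chance alone gives about 1 in 20 groups. The values in that library were 389.8 normalised counts for Tnnt2, 444 for Wnt10b, 56760 for the summed unfolded protein response genes and 10040 for the summed interferon stimulated genes.

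The genotype effect differed between fluoxetine and vehicle males for Cnih1, by -0.425 on the log2 scale (limma interaction, adjusted p = 0.0402). It differed between fluoxetine males and females for 20 of the genes named for these comparisons, each past the threshold in the limma interaction. Over all genes 354 of 17875 passed (1.98%). The 20 were largely named for small p-values in contrasts that hold the same male libraries, so their number is not separate evidence. Among the genes of sterol synthesis the difference was -0.377 for Hmgcs1, -0.466 for Sc5d and -0.631 for Idi1. It was -0.344 for Cnih1, -0.523 for Mmgt1 and -0.445 for Tmem33, all genes of the secretory pathway. Nat8f3 differed by -1.115, Nr2f2 by -0.974, Kctd7 by -0.701, Sike1 by -0.48, Ypel5 by -0.402, Ptp4a1 by -0.45, Rybp by -0.478, Spty2d1 by -0.712 and Slc5a3 by -0.866. The immediate early genes Egr2 and Fos differed by -2.727 and -2.404. In the higher direction Bmp1 differed by 0.426, Pbx4 by 0.63 and Hhipl1 by 0.542.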

How the results depend on the processing

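The 33 genes followed through the alternatives were chosen as called genes in these same libraries, so a kept direction is not separate evidence. All 33 kept their direction under every alternative. They stayed past the threshold with TMM scaling, a pseudocount of 10, no filter, a minimum of 50, array weights and the striatal covariate, 30 of them with edgeR, 24 with DESeq2, 11 with the trend in GC content and length removed, and 0 with the 10 libraries alone, where Ash1l was -0.339 (adjusted p = 0.116). The count of 69 was 312 with DESeq2 (112 higher, 200 lower), 574 with array weights, 14 without the GC and length trend, 754 with the striatal covariate, 4 without HT replicates 2 and 4, and 0 with the 10 libraries alone (2491 at an unadjusted p under 0.05). With single libraries removed it ranged over 1 to 413. Genotype by drug, 1 gene, gave 11 with DESeq2, 191 with array weights, 2 without the GC trend, 0 without HT 2 and 4, and 0 to 4 without 1 library. Genotype by sex, 354 genes, gave 681 with DESeq2, 1368 with array weights, 108 without the GC trend, 183 without HT 2 and 4, and 78 (HT male 4) to 770 (HT male 2) without 1 library. Fluoxetine males against the other groups, 127 genes, gave 430 with DESeq2, 198 with a minimum of 50, 891 with array weights, 21 without the GC trend, 5 without HT 2 and 4, and 1 (HT 4) to 509 (WT vehicle male 2) without 1 library. The average of the other groups, 41 genes, gave 75 with DESeq2, 133 with array weights and 23 to 51 without 1 library. Libraries that moved a count by over 1.5 times, besides those named in the comparison itself, were as follows. For genotype by drug the count was 2 without HT fluoxetine male 2 or HT vehicle male 5, and 4 without WT fluoxetine male 5 or WT vehicle male 2. For genotype by sex it was 658 and 596 without HT male 1 and WT male 5, and 190 and 128 without HT males 3 and 5. It was 149, 189, 206 and 148 without WT males 1 to 4, 144 and 88 without HT females 3 and 4, and 177, 221 and 109 without WT females 1 to 3. Against the other groups it was 502, 279, 32 and 1 without HT males 1, 2, 3 and 5, and 1, 27, 51, 12 and 300 without WT males 1 to 5. The same count was 203 without WT fluoxetine female 4, 222 without WT vehicle female 3, 274 without HT vehicle female 5, and 61 to 77 without HT fluoxetine female 4, HT lithium females 1 and 4, HT lithium male 3, HT vehicle females 2 and 4, HT vehicle male 3, WT fluoxetine females 1 to 3, WT lithium female 5, WT lithium male 1, or WT vehicle males 1, 4 and 5, each removed alone. The cause of these moves was not tested. The labels do not say whether replicate numbers mark litters or batches. Same-numbered HT and WT libraries had residual correlations of -0.115 to 0.143. Of 5 HT libraries, 1 correlated best with its own number. So few correlations cannot exclude a pairing. With a replicate block the counts were 22, 2 for drug, 182 for sex, 42 against the other groups and 19 for their average.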

Other observations

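Skida1 has a neighbour that moved the same way in the other groups. A930004D18Rik, which lies beside Skida1 on the same strand of chromosome 2, averaged -0.31 on the log2 scale over the other 5 groups (limma, adjusted p = 0.0272), and Skida1 -0.29. In fluoxetine males A930004D18Rik was at 43.8 to 71.9 normalised counts in HT libraries and 60.4 to 81.7 in WT libraries, with overlap (-0.34, adjusted p = 0.264). It was picked after its values were seen.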
